A study of Mus musculus with 6 samples.

Results

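The genes described here act in immunoglobulin class switching: Ung, Apex1 and Apex2 in base excision, Msh6, Pms2 and Exo1 in mismatch repair, and Trp53bp1 in the joining of the breaks. They were chosen by symbol, as the probe sets that the array's platform annotation gives to these 7 genes, of 18194 genes with a name of their own on the array. The 7 genes have 19 probe sets among 45101. All 7 passed the filter on low signals, a signal above 74.2 (the median of all signals, used as a floor) on at least 2 of the 6 arrays, and in each of them the brightest probe set was above the floor on all 6 arrays.

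A20 cells, a B lymphoma line from a BALB/c mouse, were kept in 6 conditions with 1 array each: without TGF-β, with TGF-β for 12 h and with TGF-β for 24 h, each with DMSO and no drug or with SP600125, which inhibits JNK kinases. The unstimulated cells with drug had 24 h of SP600125, the cells at 12 h of TGF-β had 12 h of it, and the cells at 24 h had 24 h of it. The question of the design is which responses to TGF-β are lost when JNK is inhibited. No condition was repeated, so a single pair of arrays has no replicate spread, and the labels do not tell separate cultures from shared ones. The labels state no dose of either agent, and 1 transformed line stands here for B cells.

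In class switching, a deaminase turns cytosines in the switch regions of the heavy chain locus into uracils. UNG cuts the uracil out, and an AP endonuclease, APE1 or APE2, nicks the strand at the empty site. Alternatively a mismatch complex that holds MSH6 binds the uracil opposite guanine, a complex with PMS2 nicks the strand and the exonuclease EXO1 resects it. The breaks that result are joined with the help of 53BP1, the product of Trp53bp1, which protects the ends, and TGF-β is known as a cytokine that directs mouse B cells to switch to IgA. The same proteins repair DNA in all dividing cells, and several of their genes are expressed most in cells that replicate their DNA.

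Promoter sequence was taken for the members that fell at 24 h of TGF-β (below) and have an entry in RefSeq's promoter table (build GRCm38.p6), which lists 5 of the 7 genes. Each stretch is the 160 bases before the annotated start on the gene's strand, 5′ to 3′, with matches to 4 E2F forms (TTTGGCGC, TTTCCCGC, TTTGCCGC, TTTCGCGC), the E-box CACGTG, the AP-1 form TGANTCA and the CCAAT box, on either strand, in capitals.
Ung, chr5:114130275-114130434, + strand: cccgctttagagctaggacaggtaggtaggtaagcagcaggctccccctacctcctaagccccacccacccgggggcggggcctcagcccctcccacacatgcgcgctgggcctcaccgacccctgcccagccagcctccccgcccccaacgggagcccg
Apex1, chr14:50924789-50924948, + strand: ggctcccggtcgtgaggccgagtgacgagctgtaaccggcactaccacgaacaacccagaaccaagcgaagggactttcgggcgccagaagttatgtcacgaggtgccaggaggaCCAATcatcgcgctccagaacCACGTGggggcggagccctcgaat
Pms2, chr5:143909841-143910000, + strand: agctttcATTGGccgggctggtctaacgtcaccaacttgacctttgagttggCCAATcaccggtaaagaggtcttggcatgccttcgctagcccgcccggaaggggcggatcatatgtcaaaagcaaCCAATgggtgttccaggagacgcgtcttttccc
The Apex1 stretch holds 1 E-box and 1 CCAAT box, the Pms2 stretch holds 3 CCAAT boxes, 1 of them on the other strand as ATTGG, and the Ung stretch holds none of these letters. Over the 300 bases from 250 before to 50 after the start, CACGTG was found in 7.15% of 32851 promoters, CCAAT in 37.4%, TGANTCA in 7.81% and any of the 4 E2F forms in 2.26% (the E-box reads the same on both strands, and a form may overlap another). In that longer window Apex1 has CACGTG at 3 places, and Msh6, which did not pass any test below, has TTTCCCGC after its start. A match is a description of the letters, not of binding.

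UNG, the uracil glycosylase that opens the base excision branch, had a signal of 1256.0 in untreated cells, 700.6 after 12 h of TGF-β without drug and 710.7 after 24 h. With SP600125 its signal was 960.9 before TGF-β, 698.5 after 12 h and 450.0 after 24 h. All 4 arrays with TGF-β were below both arrays without it, and the lowest was the array with TGF-β for 24 h and SP600125. In pairs of arrays Ung was 1.79-fold and 1.77-fold lower at 12 h and 24 h without drug, and 1.38-fold and 2.14-fold lower with drug. The last is the only difference of any member's brightest probe set, over the 7 pairs of arrays, that reached 2-fold; dimmer probe sets passed it in 1 pair for Apex2, 3 for Exo1 and 2 for Trp53bp1. In that pair 2.02% of all genes tested were lower by 2-fold or more and 6.61% differed that much in either direction. In the other TGF-β pairs the share past 2-fold was 4.7% (12 h) and 7.42% (24 h) without drug and 3.77% (12 h) with it, and in the SP600125 pairs it was 4.43%, 2.92% and 5.15% in order of time. From untreated cells to cells with both agents for 24 h the signal differed 2.79-fold.

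The tests came from limma on all 11731 genes above the floor, with the TGF-β state and the drug as additive terms. Each TGF-β effect is thus a mean over the arms with and without drug, and the SP600125 effect a mean over 3 pairs. Drug exposure was not matched at 12 h: the array with TGF-β had 12 h of SP600125 and the unstimulated array it is set against had 24 h, so in that pair TGF-β and the shorter exposure cannot be told apart. How far arrays stray from a sum of both terms serves as the error, so the p-values speak only of the spread among these 6 arrays, and errors below are standard errors. On the log2 scale Ung fell by 0.96 ± 0.20 after 24 h (Benjamini-Hochberg adjusted p = 0.0164 in limma, lower in 2 of 2 pairs), and its effect at 12 h was −0.65 ± 0.20 with an adjusted p of 0.104.

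Apex1, the gene of the main AP endonuclease, was lower on every array with TGF-β. Its signal was 9264.5 in untreated cells, 6228.8 at 12 h and 5678.9 at 24 h without drug. With SP600125 the signal was 8625.1, 5374.0 and 5787.0. The 4 arrays with TGF-β lay between 5374.0 and 6228.8, apart from both arrays without it, and 12 h and 24 h were alike. In limma Apex1 fell by 0.63 ± 0.10 at 12 h (Benjamini-Hochberg adjusted p = 0.0173) and by 0.64 ± 0.10 at 24 h (0.00647), lower in 2 of 2 pairs at each time. Its brightest probe set is of a kind (suffix _x_at) that may also bind other transcripts, but the next brightest, which is not, was at −0.60 ± 0.11 and −0.67 ± 0.11, and the remaining one at −0.37 ± 0.10 and −0.80 ± 0.10.

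Apex2, its paralogue, passed no test. Its signal was 420.4, 454.0 and 433.8 without drug as TGF-β went from 0 h to 12 h and 24 h, and 323.0, 339.7 and 301.2 with SP600125. The 3 arrays with drug were all below the 3 without it, and within each arm the range was narrow, 420.4 to 454.0 without drug and 301.2 to 339.7 with it. The effect of SP600125 on Apex2 was −0.44 ± 0.17, which did not pass after adjustment (Benjamini-Hochberg adjusted p = 0.170 in limma, lower in 3 of 3 pairs), and those of TGF-β were 0.09 ± 0.21 and −0.03 ± 0.21. A dimmer probe set was at −0.75 ± 0.24 for the drug, with −1.21 in the 24 h pair, and at −0.50 ± 0.29 for 24 h of TGF-β, with −0.86 in the pair with drug and −0.15 in the pair without it. No test compared Apex1 with Apex2.

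**Figure D1:**
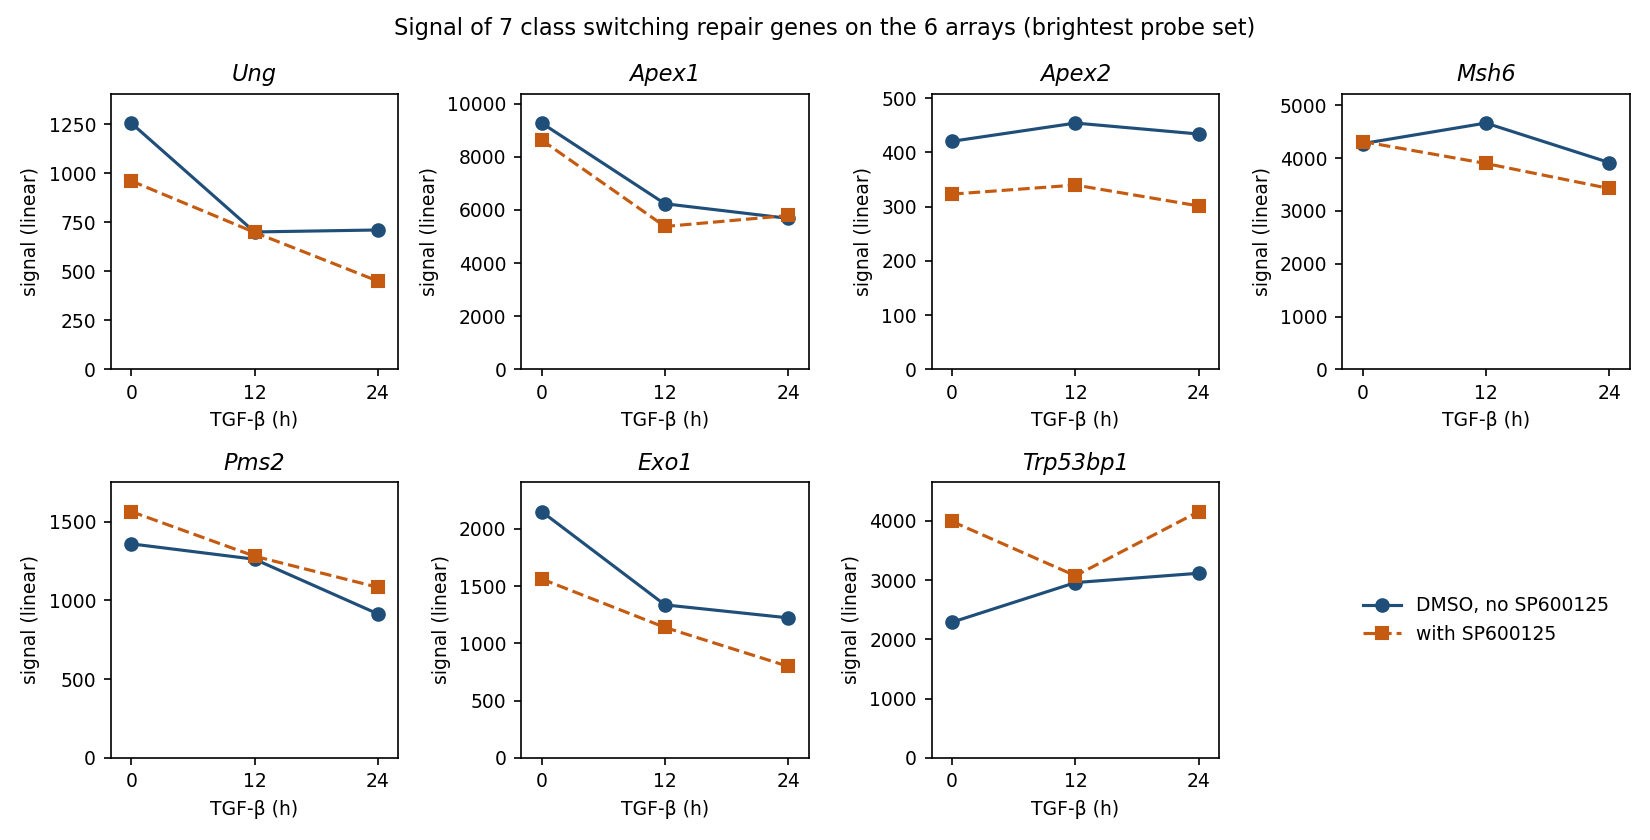
Signal of the brightest probe set of each gene (linear scale, from 0) against hours of TGF-β; each point is 1 array, blue circles without and orange squares with SP600125. Ung, Apex1 and Exo1 are lower at 12 h and 24 h than at 0 h in both arms, Apex2 is lower in the arm with SP600125 at all 3 times, and Trp53bp1 is lowest in untreated cells (2289.1).

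In the mismatch branch, Exo1, the exonuclease that resects the nicked strand, followed an order like that of Ung. Its signal was 2151.1, 1336.0 and 1222.6 at 0 h, 12 h and 24 h without drug and 1562.2, 1138.9 and 798.8 with drug. The drug arm was lower at each time, and the array with both agents for 24 h was the lowest. Exo1 fell by 0.89 ± 0.14 at 24 h (Benjamini-Hochberg adjusted p = 0.00695 in limma, lower in 2 of 2 pairs). At 12 h it was at −0.57 ± 0.14 and for SP600125 at −0.44 ± 0.12, with adjusted p-values of 0.0633 and 0.0649, lower in 2 of 2 and 3 of 3 pairs. Its other probe set above the floor, with signals from 867.2 in untreated cells to 191.3 with both agents for 24 h, was at −1.39 ± 0.24 for 24 h, and the remaining one was below the floor on all 6 arrays.

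Pms2, the MutL partner that nicks the strand, was lower at 24 h in both arms. At 12 h it differed by −0.11 without drug and by −0.29 with it, the latter with the unmatched drug exposure. Its signal was 1359.2, 1261.6 and 914.4 without drug and 1564.4, 1281.0 and 1083.2 with it. The 2 arrays at 24 h were the lowest of the 6, and the drug arm was slightly higher at each time. Pms2 fell by 0.55 ± 0.14 at 24 h (Benjamini-Hochberg adjusted p = 0.0309 in limma, lower in 2 of 2 pairs), against −0.20 ± 0.14 at 12 h. Its 2 dimmer probe sets, with mean signals of 219 and 117, were at −0.33 ± 0.27 and −0.38 ± 0.28 at 24 h and did not pass. In the 24 h pairs the first was at −0.42 without drug and −0.25 with it. The second was at 0.03 without drug and −0.78 with it, where its signal of 51.8 was set to the floor.

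Msh6, the MutS partner that gives the complex its reach to single mismatches, differed least. Its signal was 4275.1, 4664.9 and 3916.8 without drug and 4314.4, 3899.0 and 3426.0 with drug, a range of 0.45 on the log2 scale over the 6 arrays. Its effects were −0.01 ± 0.11 at 12 h, −0.23 ± 0.11 at 24 h and −0.15 ± 0.09 for SP600125, and none passed in limma. That does not show that Msh6 is unaffected.

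Trp53bp1, which acts after the breaks are made, was the member with its lowest signal in untreated cells. The signal was 2289.1, 2957.3 and 3114.8 without drug and 3988.5, 3072.9 and 4155.9 with SP600125. The drug arrays at 0 h and 24 h were the highest of the 6, while at 12 h both arms had nearly the same signal. The effect of SP600125 was 0.42 ± 0.14, which did not pass (limma, adjusted p = 0.101 by Benjamini-Hochberg, higher in 3 of 3 pairs), and those of TGF-β were −0.00 ± 0.17 and 0.25 ± 0.17. Its probe sets disagreed. The second brightest, with a mean signal of 1537, was at 0.03 ± 0.12 for the drug, those with mean signals of 150 and 118 were at −0.39 ± 0.28 and 0.47 ± 0.30, and 2 more were below the floor on all arrays.

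**Figure D2:**
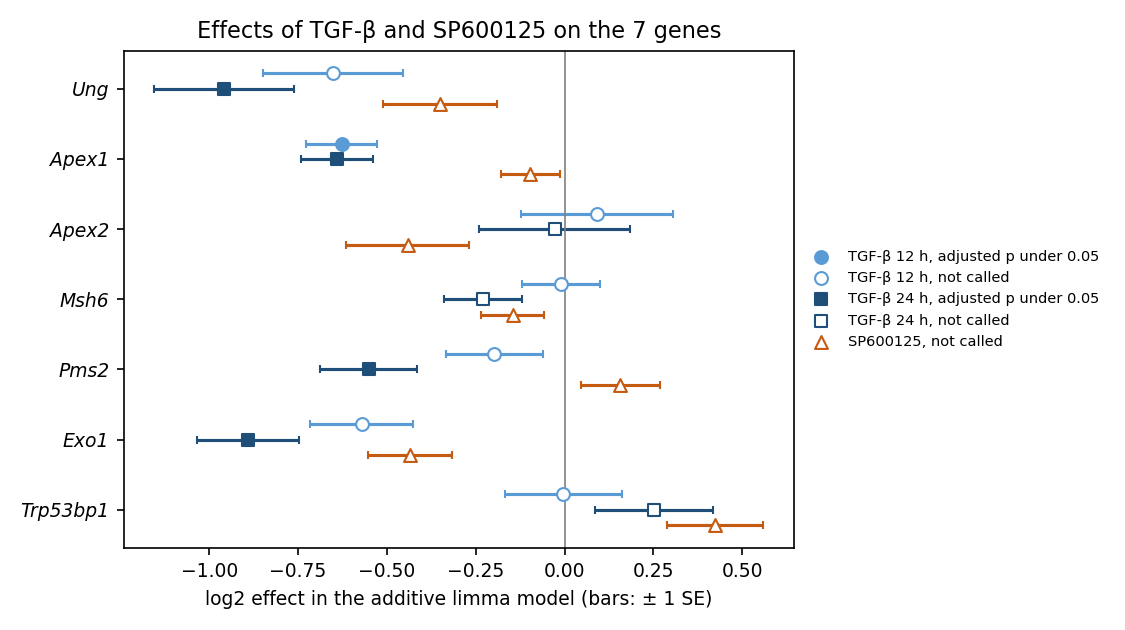
Log2 effect of 12 h and 24 h of TGF-β and of SP600125 on each gene in the additive limma model; bars are 1 standard error, filled symbols passed at an adjusted p under 0.05. Ung, Apex1, Pms2 and Exo1 have filled squares for 24 h between −0.96 and −0.55, Apex1 alone has a filled circle for 12 h, and no triangle for SP600125 is filled.

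In all, 4 of the 7 members fell and 0 rose at 24 h of TGF-β, where limma called 16.6% of all genes tested (9.07% rose and 7.5% fell). At 12 h 1 of 7 fell and 0 rose, where 4.97% of all genes were called (2.6% rose and 2.37% fell). The median effect over the members was −0.20 at 12 h and −0.55 at 24 h, against 0.02 and 0.07 over all genes tested. The members were chosen with earlier results of these data known. These counts and medians thus describe them and do not test whether they differ from other genes. By the brightest probe set Ung, Apex1, Pms2 and Exo1 were lower in all 4 TGF-β pairs, as were 18.4% of all genes. Each arm's pairs share 1 unstimulated array.
The calls depended on the settings of the fit. With the same genes tested, leaving out any 1 of the 6 arrays left no member called at 24 h after adjustment. Far fewer of all genes were called then too. With the filter on low signals applied again to the 5 arrays, some or all of the 4 were called, as were many other genes. Each of these fits leaves 1 TGF-β state with 1 array, so its counts are not given. With no intensity trend in the variance estimate 1 of 7, Exo1, was called at 24 h, where 562 of 11731 genes were called. Without the array of TGF-β for 24 h with SP600125 the 24 h effects were −0.73 ± 0.21 for Ung, −0.76 ± 0.15 for Exo1, −0.73 ± 0.10 for Apex1 and −0.62 ± 0.15 for Pms2.

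For SP600125 limma called 0 of the 7 members after adjustment, and 3 (Apex2, Exo1 and Trp53bp1) at an unadjusted p under 0.05, where it called 7.68% of all genes after adjustment (3.99% rose and 3.69% fell) and 24.1% at the unadjusted p. The median effect over the members was −0.15, against 0.04 over all genes. Ung, Apex2 and Exo1 were lower in all 3 drug pairs, as were 18.4% of all genes, although the 12 h difference of Ung was only −0.004, and Pms2 and Trp53bp1 were higher in all 3, as were 24.5%. In a model with a TGF-β by SP600125 interaction, which takes 12 h and 24 h as repeats, 0 members were called after adjustment and 0 at an unadjusted p under 0.05, where limma called 0% of all genes after adjustment and 2.69% at the unadjusted p. By the brightest probe set the interaction estimate farthest from 0 was that of Trp53bp1, at −0.57 ± 0.31, but with the mean of all probe sets it was −0.13 ± 0.27, nearer to 0 than those of Msh6 (−0.24), Apex2 (−0.23) and Pms2 (−0.15). Without drug its TGF-β differences were 0.37 at 12 h and 0.44 at 24 h, and with drug they were −0.38 (with the unmatched drug exposure) and 0.06.

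**Figure D3:**
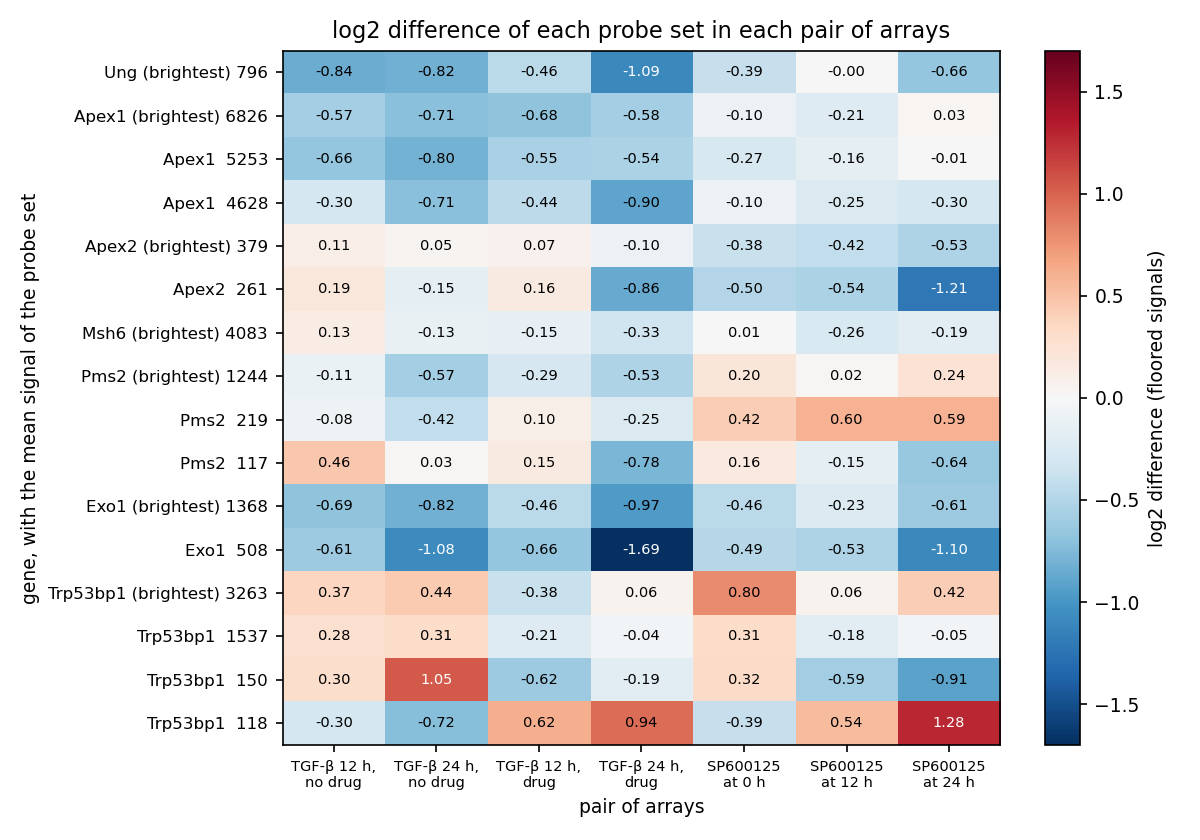
Log2 difference of each of the 16 member probe sets above the floor on at least 2 arrays (rows, with mean signal) in each of 7 pairs of arrays (columns); blue is lower and red higher, with the value in each cell. The Ung, Apex1 and Exo1 rows are blue in all 4 TGF-β columns, and the Trp53bp1 rows differ in sign from one another.

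Control probe sets set apart the array with both agents for 24 h, on which Ung, Apex2, Msh6 and Exo1 were lowest. An 18S ribosomal RNA control probe set had signals of 270.9, 521.4 and 583.9 over the 3 times without drug and 343.7, 659.3 and 3288.9 with it. Besides the high value on that array, all 4 arrays with TGF-β were above both without it, the same split as in Ung and Apex1, and its part in their lower signals was not tested. The ratio of the 3′ to the 5′ actin probe set was 1.89 on that array against 1.25 to 1.51 on the other 5, and was 1.25 and 1.51 without TGF-β and 1.25 to 1.32 on the other 3 with it. In the 24 h pair without drug the 18S signals were 270.9 and 583.9, and Ung and Exo1 both differed by −0.82. The part of the 18S signal in that pair was not tested. All 9 B cell markers found (Cd79a, Cd79b, Ms4a1 and others) were above the floor on all arrays, with summed signals of 52640.6 to 93333.4. With SP600125 5 of these 9 fell and 0 rose, with a median of −0.57, and their part in the drug's effects was not tested. In a bulk sample fewer cells of a type and less RNA per cell cannot be told apart. Of markers of other cells, 3 of 8 T and NK, 5 of 8 myeloid, 6 of 8 fibroblast and 2 of 6 erythroid and platelet genes were above the floor on any array, with summed signals of 426.6 to 754.9, 757.8 to 1156.3, 251.7 to 586.1 and 276.0 to 458.4. Above the floor on all 6 arrays were 1 T and NK gene (Zap70), 2 myeloid (Csf1r and Adgre1), 0 fibroblast and 1 erythroid and platelet gene (Itga2b). Cd3d, Cd3g, Cd4 and Cd14 were among those below the floor on all 6.

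Among other genes of base excision repair, glycosylases differed in direction under TGF-β. Mbd4, which removes uracil or thymine mispaired with guanine, had signals of 2654.9, 6892.4 and 6849.0 over the 3 times without drug and 2965.6, 6227.5 and 5485.9 with drug. All 4 arrays with TGF-β were above both without it, and Mbd4 rose by 1.22 ± 0.13 at 12 h and 1.13 ± 0.13 at 24 h (Benjamini-Hochberg adjusted p = 0.00331 and 0.00224 in limma, higher in 2 of 2 pairs at each time), with its other 2 probe sets higher in all 4 pairs too. Neil1, a glycosylase of oxidised bases, fell by 1.02 ± 0.17 (log2) after 12 h and rose by 1.03 ± 0.14 with SP600125. At 24 h its effect was −0.45 ± 0.17 and did not pass (Benjamini-Hochberg adjusted p = 0.119 in limma). The 24 h pairs of Neil1 were at −0.11 without drug and −0.80 with it. Nthl1, also a glycosylase of oxidised bases, fell by 0.82 ± 0.20 at 24 h. Lig1, which seals nicks at the replication fork, fell by 0.66 ± 0.12 at 24 h and by 0.60 ± 0.10 with the drug. Of 20 base excision genes tested, Ung, Apex1 and Apex2 among them, limma called 1 risen and 2 fallen at 12 h, 1 and 5 at 24 h, and 1 and 2 with SP600125, with medians of −0.11, −0.42 and −0.06.

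Of 13 mismatch repair genes tested, with Msh6, Pms2 and Exo1 among them, 0 rose or fell at 12 h, 7 fell at 24 h and 5 fell with SP600125, with 0 risen. The medians were −0.16, −0.53 and −0.44. Rfc3, a subunit of the clamp loader, fell by 1.11 ± 0.15 at 24 h and by 0.56 ± 0.12 with the drug, and Rfc5 by 0.56 ± 0.14 and 0.73 ± 0.11. Pcna, the sliding clamp, fell by 0.67 ± 0.16 at 24 h. Pms1, another MutL protein, fell by 0.81 ± 0.18 with SP600125, where Pms2 was at 0.16 ± 0.11. The clamp and its loader also serve DNA replication, so the list's count is in large part of genes with that role.

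Of 19 genes of the 53BP1 axis and end joining, 0 rose or fell at 12 h, 5 fell at 24 h and 1 fell with SP600125, with medians of −0.00, −0.29 and −0.02. Xrcc6, the Ku70 subunit, fell by 0.84 ± 0.12 at 24 h and by 0.42 ± 0.10 with the drug. Nbn, of the complex that senses breaks, fell by 0.75 ± 0.14, and Rif1, which acts with 53BP1, by 0.57 ± 0.13, with its other 3 probe sets also lower in both 24 h pairs. Paxip1 fell by 0.55 ± 0.14, but 2 of its other probe sets were higher in the 24 h pair without drug, at 0.09 and 0.21. Trp53bp1 was at 0.25 ± 0.17.

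For comparison, of 23 genes of G1/S and DNA replication 0 rose or fell at 12 h, 17 fell at 24 h and 10 fell with SP600125, with 0 risen and medians of −0.07, −0.67 and −0.46. The part of a change in replication in the lower Ung, Exo1 and Pms2 signals was not tested. Gins1, Cdc6, Mcm2 and Uhrf1, all of replication or its licensing and maintenance, fell at 24 h by 1.19 ± 0.15, 0.94 ± 0.21, 0.96 ± 0.16 and 0.93 ± 0.18. Of 11 cofactors of switch-region deamination limma called 1 risen and 0 fallen at 12 h, 2 and 3 at 24 h, and 0 and 1 with the drug, with medians of −0.04, −0.22 and −0.07. Prkaca, the protein kinase A catalytic subunit, rose by 0.96 ± 0.21 at 12 h by a probe set of the _x_at kind. In the 12 h pairs that probe set was at 0.70 without drug and 1.22 with it, and a dimmer one at 0.44 and 0.41. Rpa1, which coats single-stranded DNA, fell by 0.48 ± 0.11 at 24 h and 0.47 ± 0.09 with the drug. Rpa3, of the same complex, and Exosc3, of the RNA exosome, fell at 24 h by 0.48 ± 0.12 and 0.49 ± 0.12. Of 17 transcription factors and receptors that act in switching 3 rose at 12 h, 7 at 24 h and 4 with SP600125, and 0 fell, with medians of −0.05, 0.50 and −0.03. At 24 h the TGF-β receptor genes Tgfbr1 and Tgfbr2 rose by 2.17 ± 0.33 and 1.10 ± 0.18, Cd40, the receptor of T cell help, by 1.72 ± 0.28, and Nfkb2 by 1.06 ± 0.17. These are means over both arms. In the 24 h pairs Tgfbr1 was higher by 2.99 without drug and 1.36 with it, and Cd40 by 1.01 and 2.43. The dimmer Tgfbr1 probe sets were at 1.95 and 1.40 without drug and at −0.45 and 0.01 with it. Neither gene passed after adjustment in the interaction model.

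**Figure D4:**
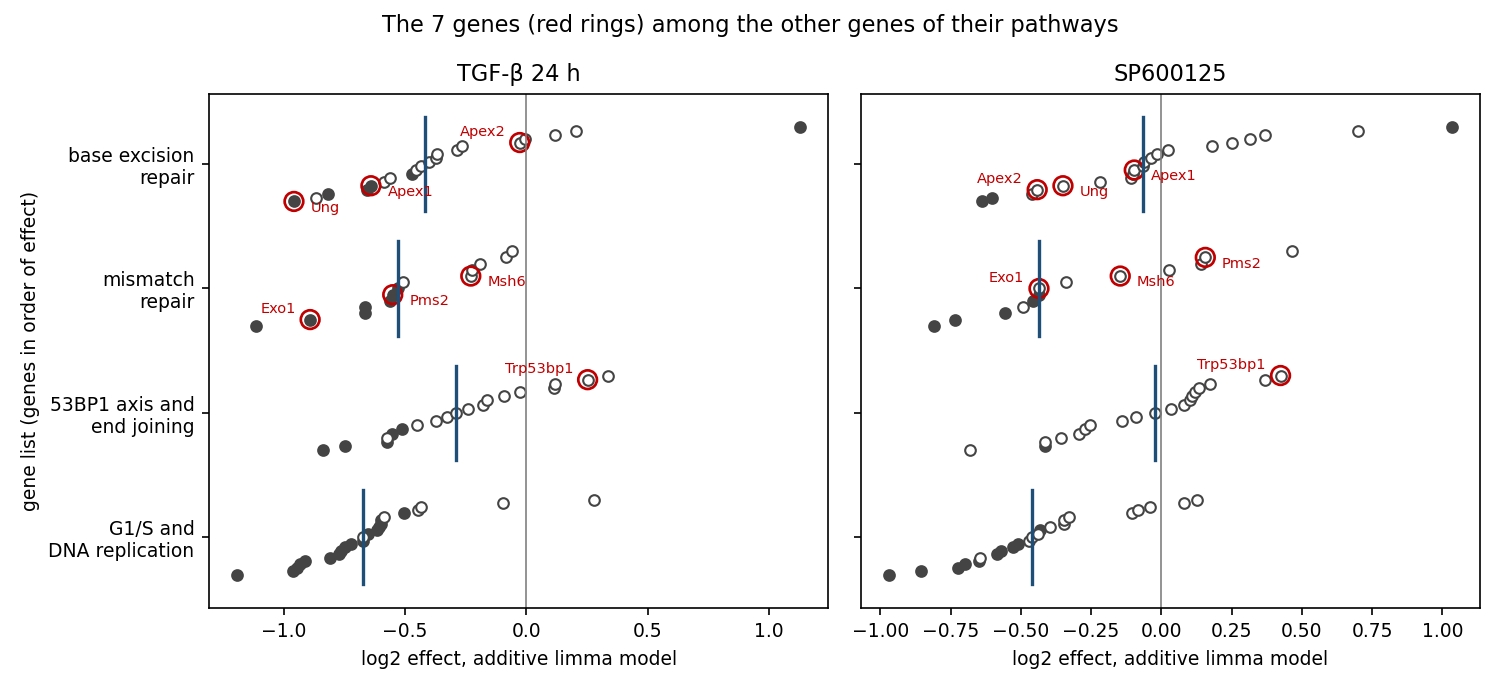
Log2 effect of 24 h of TGF-β (left) and of SP600125 (right) on each gene of 4 lists; each dot is a gene, filled where it passed at an adjusted p under 0.05, blue lines are list medians and red rings mark the 7 members. At 24 h the medians are −0.42, −0.53, −0.29 and −0.67 from top to bottom, and the filled dot at 1.13 in the top list is Mbd4.

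For each member the genes with the most similar log2 signals over the 6 arrays were named by Pearson r among all genes tested, which makes a high r certain. For Ung these were Fbl (r = 0.994), the nucleolar methyltransferase fibrillarin, and Mrps34 (0.991), of the mitochondrial ribosome. For Exo1 they were Cdc25a (0.996), a phosphatase of the G1/S transition, and Mrps34 again (0.996). Apex1 was most like Atf6b (0.996) and Rrp9 (0.995), and Apex2 was most like Ost4 (0.999) and Sc5d (0.998), an enzyme of cholesterol synthesis. Msh6 was most like Ccnh (0.985) and 2610524H06Rik (0.985), Pms2 like Prdx3 (0.988) and Pfdn6 (0.985), and Trp53bp1 like Fam135a (0.990) and Rnf19a (0.990). The 6 points share their arrays and their scaling.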

How the data were processed

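Messenger RNA of A20 cells was measured on 6 Affymetrix mouse arrays, 1 for each condition, grouped by sample title. The deposited values are linear intensity values (signals), 1 per probe set and array, for which the submitters' processing notes name GCOS 1.2 with no settings; the 2% trimmed mean of each array was 500.0. The number of arrays limits the precision.

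Names came from probe sets with 1 symbol in the platform annotation (34958 of 45101; 932 had several and 9211 were not listed). A gene was represented by its probe set of highest mean signal. Signals under 74.2, the 50th percentile, were set to that floor, and log2 was taken, which understates changes of dim genes. Genes exceeding it on 2 or more arrays entered limma 3.58.1 (R 4.3.3), with an intensity trend, 2 residual degrees of freedom and a prior of 5.97; calls are Benjamini-Hochberg adjusted p-values under 0.05. A further fit took every probe set (24983). "Rose" and "fell" mean called by limma. Members and lists were chosen with earlier results of these data known. All members are named; other genes were named from each list when called, up to 4 by size of change. Alternatives are scaling, floor, probe set choice, filter, trend and leaving out arrays.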

Additional observations from a re-analysis of the deposited data

How the results depend on the processing

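The main fit called 583 genes of 11731 at 12 h, 1944 at 24 h and 901 for SP600125. With quantile normalization, a floor at the 25th percentile or a fit of all probe sets, the counts of members called were as reported (1 at 12 h, 4 at 24 h, 0 for SP600125 and 0 for the interaction). Those runs called 1911 of 11718 genes, 1846 of 16527 genes and 2952 of 24983 probe sets at 24 h. Median scaling gave 2 at 12 h (Apex1, Exo1) and 1 for SP600125 (Exo1), where 668 and 1029 of 11718 genes were called. In the 24 h pair with drug it moved the median gene from 0.05 to −0.07 and Trp53bp1 there from 0.06 to −0.11. Log2(signal + 16) without a floor gave 3 at 12 h (Ung, Apex1, Exo1) and 1 for the drug (Exo1), where 997 and 1265 of 11731 genes were called. The mean of all probe sets gave 0 at 12 h and 3 at 24 h, without Pms2, where 86 and 964 of 11817 genes were called. With no filter on dim genes, 0 were called at 12 h and 0 at 24 h, where only 2 and 3 of 18194 genes were called. With no intensity trend it was 0 and 1, where 22 and 562 of 11731 genes were called. Leaving out each array in turn with the same genes left no member called at 12 h, at 24 h or for SP600125. Far fewer of all genes were called then than in the main fit. The dim-gene filter applied again to the 5 arrays was an alternative chosen after seeing the data. With it the calls of members came back in part and varied with the array left out, as did those of all genes. Over both kinds of fit the 24 h effect lay between −1.19 and −0.73 for Ung, −1.03 and −0.76 for Exo1, −0.73 and −0.55 for Apex1 and −0.62 and −0.49 for Pms2. The cause was not tested. No called effect of a member changed sign in any alternative run. The floor at the 25th percentile, no filter, no intensity trend and the fit of all probe sets left each member's effect as in the main fit. In those runs the sign could not change. No pairing of replicates was possible because each condition had 1 array. The additive fit already compares arrays within each TGF-β state and each drug setting.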

Other observations

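Igha, the IgA constant region gene, had signals of 103.0, 94.9 and 244.9 without drug (before TGF-β, after 12 h, after 24 h) and 28.2, 107.7 and 128.0 with SP600125; it was chosen for mention after its values were seen. The 24 h array without drug was the highest and the drug-alone array was below the floor of 74.2. The effect of 24 h of TGF-β was 1.02 ± 0.30 and did not pass (limma, adjusted p = 0.0567 by Benjamini-Hochberg). Jchain, the chain that joins IgA and IgM into polymers, fell by 0.44 ± 0.09 on the log2 scale with SP600125, the only call for any of the 3 effects among the 4 immunoglobulin genes tested, whose medians were 0.06, 0.25 and −0.11 for 12 h, 24 h and SP600125. A signal of Igha does not tell a transcript of a switched locus from one of the unswitched locus.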
